A study of Mus musculus with 10 samples.

Results

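The genes described here are the ligands and receptors of axon guidance in cultured lung fibroblasts: semaphorins, plexins and neuropilins, ephrins and Eph receptors, Slits and Robos, and netrins with Unc5 receptors. They were chosen by a rule on gene symbols. Of 68 such symbols in the mouse gene table, 67 had a probe set assigned to a single gene, among 18193 genes measured. The set holds 20 semaphorins, 11 plexins and neuropilins, 8 ephrins, 13 Eph receptors, 7 Slit and Robo genes and 8 netrin and Unc5 genes. Ephb2 had no probe set assigned to it alone and was not analysed here.

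Expression was measured on Affymetrix mouse microarrays in 5 arrays of carcinoma-associated fibroblasts (CAF), the fibroblasts found within a tumour, and 5 arrays of normal lung fibroblasts. Cells of both groups had been isolated from mouse lungs, expanded in DMEM with 10% serum over 10 to 14 days and replated overnight on 10 cm dishes, and each labelled target was made from 6 ug of total RNA. The labels used here give no strain, genotype, tumour model, age or added agent for either group, and they call the arrays biological replicates without saying which animals they came from, so p-values measure only the spread between these arrays. Sample codes begin with vs for normal arrays 1 to 3 and with ls for normal arrays 4 and 5 and for every CAF array, and the labels used here do not say what the prefix means.

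Guidance proteins were first known for steering growing axons, which are attracted or repelled by cues on or near other cells. Semaphorins act through plexins, often with a neuropilin as co-receptor; ephrins and Eph receptors are both held at the cell surface and signal in both directions at contacts; Slits act through Robos; and netrins act through Dcc, neogenin and the Unc5 receptors. The same families shape the cytoskeleton, adhesion and movement of cells outside the nervous system, and in the lung several of them take part in branching and in the growth of blood vessels.

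RefSeq promoter windows on GRCm38.p6, running from 250 bases before to 50 bases after a start, were at hand for 58 of the 67 genes, in 74 windows. The 3 windows below belong to Epha4 and Ephb3, 2 Eph receptors whose CAF values lay wholly above and wholly below the normal values, and to Sema7a, the semaphorin with the greatest difference. Capitals mark GC boxes (CCGCCC on either strand), a motif bound by Sp family factors. The Epha4 window lies at chr1:77515039-77515338 on the minus strand, the Ephb3 window at chr16:21204545-21204844 on the plus strand and the Sema7a window at chr9:57939862-57940161 on the plus strand.
Epha4: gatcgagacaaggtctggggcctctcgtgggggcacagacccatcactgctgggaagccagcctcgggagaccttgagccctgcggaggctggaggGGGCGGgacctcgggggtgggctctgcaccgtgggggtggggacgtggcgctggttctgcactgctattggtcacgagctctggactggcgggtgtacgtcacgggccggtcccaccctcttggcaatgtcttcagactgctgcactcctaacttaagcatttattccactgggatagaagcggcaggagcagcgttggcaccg
Ephb3: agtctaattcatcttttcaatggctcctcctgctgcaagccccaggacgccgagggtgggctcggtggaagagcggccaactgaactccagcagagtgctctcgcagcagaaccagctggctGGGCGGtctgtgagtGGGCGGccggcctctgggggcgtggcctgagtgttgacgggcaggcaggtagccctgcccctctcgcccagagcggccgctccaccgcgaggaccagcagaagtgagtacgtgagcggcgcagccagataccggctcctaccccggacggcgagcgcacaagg
Sema7a: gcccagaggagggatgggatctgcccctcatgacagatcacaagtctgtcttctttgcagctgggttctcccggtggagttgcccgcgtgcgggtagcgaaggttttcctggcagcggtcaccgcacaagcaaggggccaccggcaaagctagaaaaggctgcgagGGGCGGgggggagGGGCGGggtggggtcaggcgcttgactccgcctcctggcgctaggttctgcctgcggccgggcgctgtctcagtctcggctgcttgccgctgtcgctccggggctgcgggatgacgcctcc
A GC box stood in 53 of the 74 windows (71.6%), and in 35.7% of all 32851 promoter windows of that length. The windows of the guidance genes also differed in base composition, with a median of 18.5 CG pairs against 7 in all windows. The AP-1 motif TGANTCA stood in 3 windows (4.05%), those of Sema4c, Sema4d and Sema6b, and in 7.81% of all windows. The letters TATAAA stood in 2 windows (2.7%), those of Efnb2 and Slit2, and in 13.6% of all windows. Each motif was searched on both strands, a window was counted once per motif whether or not motifs overlapped, and a match describes letters only.

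No guidance gene passed an adjusted p of 0.05 between CAF and normal fibroblasts (limma, Benjamini-Hochberg over all 18193 genes), where 0.753% of all genes did. The lowest adjusted p among the 67 was 0.0635, for Epha4. An unadjusted p under 0.05 was reached by 18 of the 67 (26.9%), 7 of them higher and 11 lower in CAF, and by 22.3% of all genes. The groups did not overlap, with all 5 CAF arrays on the same side of all 5 normal arrays, in 7 guidance genes (10.4%), against 7.16% of all genes. Epha4 was the 1 of these with CAF above normal (2.97% of all genes lay that way), and Sema3f, Sema6c, Plxnb1, Plxnb3, Ephb1 and Ephb3 were the 6 with CAF below normal (4.19% of all genes). Group means lay at least 2-fold apart in 5 guidance genes (7.46%), Sema7a, Robo1, Ntn1 and Ntn4 with the higher mean in CAF and Epha3 with the lower, where 2.2% of all genes lay that far apart. The median log2 difference over the 67 was -0.06, against -0.04 over all genes, and 25 of the 67 (37.3%) were positive, against 42.7% of all genes.

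**Figure D1:**
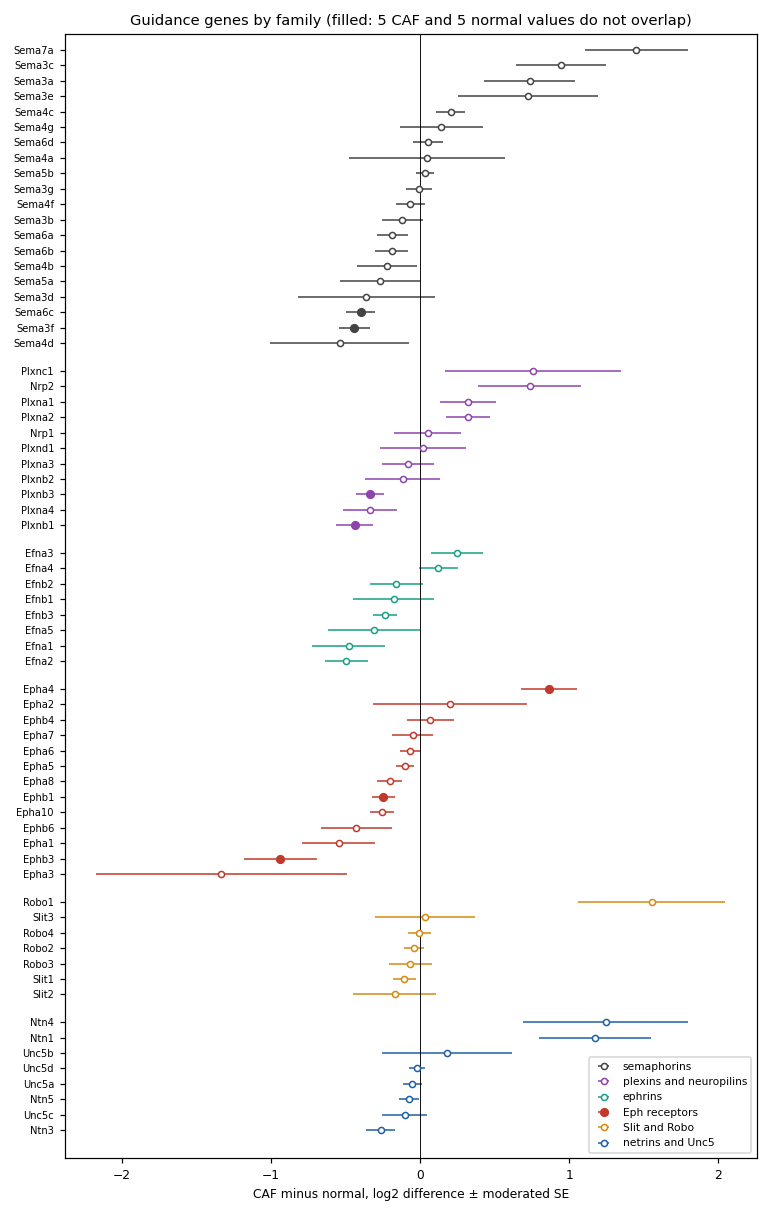
Log2 difference of each of the 67 guidance genes between CAF and normal arrays (x axis, CAF minus normal, bars are the moderated standard error of limma), grouped by family down the page. Filled points are the 7 genes whose CAF and normal values do not overlap; Robo1, Sema7a, Ntn4 and Ntn1 lie farthest to the right and Epha3 farthest to the left.

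Over the whole array values varied more in the normal arrays, and the guidance genes did so at about the same rate. The median SD over the 67 was 0.22 in CAF and 0.29 in normal arrays, against 0.14 and 0.21 over all genes, and the SD was larger in the normal arrays in 47 of the 67 (70.1%), near the 71.1% of all genes. By family the share with the larger SD in the normal arrays was 60% of semaphorins, 100% of plexins and neuropilins, 75% of ephrins, 76.9% of Eph receptors, 57.1% of Slit and Robo genes and 50% of netrin and Unc5 genes. A total of 44 guidance genes had more than 1 probe set, and the brightest was used; of 81 dimmer probe sets of these genes, 16, in 14 genes, had the opposite sign to the brightest. In mixed RNA of this kind, fewer cells of a type and less RNA per cell cannot be told apart. Values are log2 expression, given for arrays 1 to 5 of each group, and each difference is a log2 difference, CAF minus normal, followed by its moderated standard error from limma.

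Among the semaphorins, 9 of 20 differences were positive and 11 negative, with a median of -0.03. Sema3f, a secreted semaphorin that binds neuropilin 2, read 11.37, 11.51, 11.38, 11.45 and 11.36 in CAF arrays, against 12.19, 11.94, 11.77, 11.62 and 11.75 in normal arrays. Every CAF array lay below every normal array, and the difference was -0.44 ± 0.10 (adjusted p = 0.0686, limma). Its probe set is of the kind that can cross-hybridise, and its 2 dimmer probe sets differed by -1.21 and -0.57 with overlapping groups. Sema6c, a transmembrane semaphorin that signals through A-type plexins, read 9.09, 9.20, 9.16, 9.08 and 8.95 in CAF arrays, against 9.68, 9.68, 9.27, 9.36 and 9.48 in normal arrays. The groups again did not overlap, with a difference of -0.40 ± 0.10 (adjusted p = 0.0723). A dimmer Sema6c probe set differed by -0.23 without overlap, and the dimmest by -0.03 with overlap.

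Sema7a, a semaphorin held to the membrane by a lipid anchor that binds plexin C1 and beta-1 integrins, read 9.20, 7.95, 9.21, 10.03 and 8.95 in CAF arrays, against 7.29, 7.41, 7.26, 8.0 and 8.12 in normal arrays. The CAF array 2 was the lowest of its group and lay below both normal arrays with prefix ls, while the other 4 CAF arrays were above all normal arrays. The means were 9.07 ± 0.74 in CAF and 7.62 ± 0.41 in normal arrays (SD, n = 5 each), a 2.73-fold difference of 1.45 ± 0.35 (adjusted p = 0.0723, limma). Without CAF array 2 the difference was 1.73 with an adjusted p of 0.0306, at which 0.841% of all genes were called; over the 24 alternatives the adjusted p of Sema7a ran between 0.0306 and 0.336. Its dimmer probe set differed by 0.31, and the mean of both by 0.88.

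Sema3c, a secreted semaphorin known from the cardiac outflow tract, read 13.42, 12.97, 13.64, 12.93 and 13.11 in CAF arrays, against 12.76, 13.12, 12.01, 11.99 and 11.45 in normal arrays. Normal arrays 1 and 2 stood nearer the CAF arrays than normal arrays 3 to 5, and only normal array 2 overlapped the CAF range. The difference was 0.95 ± 0.30 (adjusted p = 0.12). A dimmer Sema3c probe set had no overlap and differed by 1.06. The other 16 semaphorins had differences between -0.54 and 0.74, 7 positive and 9 negative, with adjusted p between 0.194 and 0.974 (limma). The ends of that range were Sema4d, the ligand of plexin B1, and Sema3a, a repellent that acts through neuropilin 1, and both are named because of their values. Sema4d read 7.41, 7.38, 7.0, 7.57 and 7.64 in CAF arrays, against 8.83, 6.85, 9.39, 7.51 and 7.12 in normal arrays. Its high values were normal arrays 1 and 3, and the other 8 arrays lay between 6.85 and 7.64.

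In the plexins and neuropilins, the receptors of the semaphorins, 6 of 11 differences were positive and the median was 0.02. Plxnb1, the receptor of Sema4d, read 8.78, 9.07, 8.96, 8.77 and 8.74 in CAF arrays, against 9.74, 9.23, 9.11, 9.19 and 9.25 in normal arrays. No CAF array reached the normal range, and the difference was -0.44 ± 0.12 (adjusted p = 0.0949, limma). Its dimmer probe set differed by -0.42 with overlapping groups. Plxnb3, a receptor of Sema5a, read 6.97, 7.04, 6.98, 6.94 and 6.91 in CAF arrays, against 7.64, 7.26, 7.27, 7.20 and 7.13 in normal arrays. Its groups did not overlap, at -0.33 ± 0.09 (adjusted p = 0.0933), nor did they on its dimmer probe set, at -0.16. On the brightest probe set of both genes normal array 1 was the highest array.

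Plxna2, which pairs with neuropilins and class 6 semaphorins, had the smallest p of this family in the other direction and read 7.62, 7.78, 7.70, 7.36 and 7.59 in CAF arrays, against 6.96, 6.99, 7.45, 7.69 and 7.36 in normal arrays. Its groups overlapped at 0.32 ± 0.15 (adjusted p = 0.237). Plxnb2, the receptor of Sema4c, read 11.92, 11.91, 11.55, 11.54 and 11.65 in CAF arrays, against 12.59, 12.22, 11.29, 11.27 and 11.77 in normal arrays. The 2 highest arrays were normal arrays 1 and 2, and the difference of -0.11 ± 0.25 (adjusted p = 0.812) became 0.07 without normal array 1. Of the other 7 receptors 5 differences were positive, in a range from -0.34 to 0.76, with adjusted p between 0.241 and 0.97. Nrp2, the co-receptor of Sema3f and named here after its values were seen, differed by 0.74 ± 0.34 (adjusted p = 0.241). Among its dimmer probe sets, the brightest had no overlap at 1.18, and the others overlapped at 0.81 and -0.02. Nrp1, the co-receptor of Sema3a, differed by 0.05 ± 0.22.

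Of the 8 ephrins, 6 had negative differences, and the median was -0.20. Efna2, an ephrin held by a lipid anchor, read 7.42, 7.67, 7.37, 7.50 and 7.59 in CAF arrays, against 8.24, 7.73, 8.34, 8.07 and 7.64 in normal arrays. The groups touched only where CAF array 2 exceeded normal array 5, and the difference was -0.49 ± 0.14 (adjusted p = 0.0987, limma). Efnb3, a transmembrane ephrin known as a midline barrier in the spinal cord, read 6.64, 6.69, 6.79, 6.75 and 6.52 in CAF arrays, against 6.92, 7.12, 6.91, 6.86 and 6.75 in normal arrays. The difference was -0.23 ± 0.08 (adjusted p = 0.143), and the groups met where CAF array 3 exceeded, and CAF array 4 equalled, normal array 5.

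Efna1, a ligand of EphA2, read 7.09, 7.48, 6.61, 6.62 and 6.91 in CAF arrays, against 7.69, 7.05, 8.13, 7.15 and 7.08 in normal arrays. Normal array 3 was the highest of the 10, the groups overlapped, and the difference was -0.48 ± 0.25 (adjusted p = 0.28). Efna3, a further lipid-anchored ephrin, had the smallest p among the ephrins with the higher mean in CAF and read 7.52, 6.92, 7.46, 7.63 and 7.70 in CAF arrays, against 7.31, 7.60, 6.85, 7.17 and 7.06 in normal arrays. Its ranges overlapped, at 0.25 ± 0.17 (adjusted p = 0.419). Efnb2, the transmembrane ligand of EphB4 that marks arteries, read 10.54, 10.97, 10.14, 10.22 and 10.71 in CAF arrays, against 10.26, 10.67, 10.69, 10.85 and 10.89 in normal arrays. The ranges overlapped at -0.16 ± 0.18 (adjusted p = 0.627). The other 3, Efna4, Efna5 and Efnb1, lay between -0.31 and 0.12.

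Among the 13 Eph receptors, the receptor tyrosine kinases of the ephrins, 10 differences were negative, and the median was -0.20. Epha4, which binds ephrins of both the A and the B class, read 8.32, 8.69, 9.38, 8.89 and 9.26 in CAF arrays, against 7.91, 8.20, 7.85, 8.10 and 8.15 in normal arrays. Every CAF array lay above every normal array. The means were 8.91 ± 0.43 in CAF and 8.04 ± 0.15 in normal arrays (SD, n = 5 each), a 1.82-fold difference of 0.87 ± 0.19 (adjusted p = 0.0635, limma). Over the 24 alternatives its adjusted p ran between 0.0304 and 0.312, and it was called under 5 of them: median centring (0.0488), array weights (0.0406), every probe set tested singly (0.0304), the mean of its probe sets (0.0411) and the arrays without normal 1 and 2 (0.047). The share of all genes called under these 5 was 1.57%, 8.78%, 1.95%, 0.923% and 13.1% in the same order. With every probe set tested singly, each gene was given by its probe set with the smallest p.

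All 5 Epha4 probe sets had no overlap, with CAF above normal in each. Tested among all 34945 single-gene probe sets, of which 1.23% were called and 7% had no overlap, they differed by 0.87, 1.08, 1.30, 1.45 and 0.28 in order of brightness. The adjusted p was 0.058, 0.047, 0.0304, 0.0318 and 0.0789 in the same order (limma), so that 3 of the 5 passed. The dimmest of them had a mean of 5.00 over the 10 arrays, below the median of every array (6.73 to 6.79). The probe sets read the same RNA and are not replicates of each other.

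**Figure D2:**
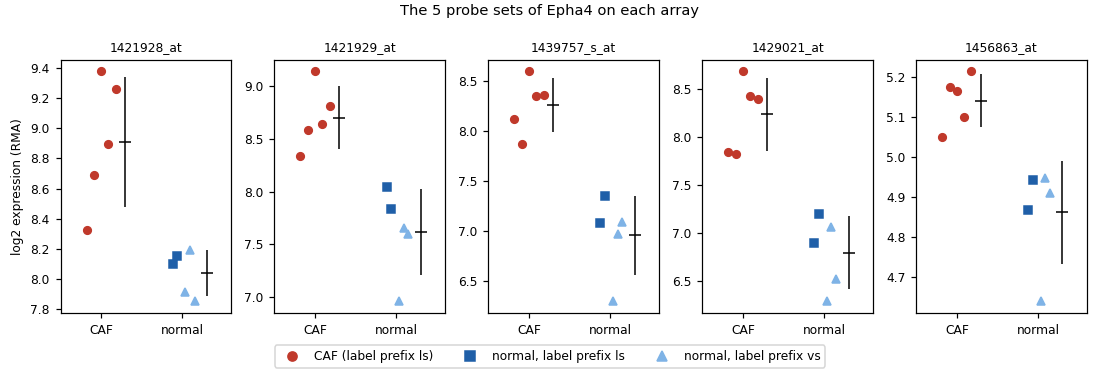
Log2 expression of Epha4 on each array for its 5 probe sets, ordered by brightness, with CAF arrays at the left and normal arrays at the right of each panel; symbols give the label prefix and bars the mean and SD. In each panel the 5 CAF arrays lie above the 5 normal arrays, with differences of 0.87, 1.08, 1.30, 1.45 and 0.28.

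Ephb3, a receptor of B-class ephrins, read 8.19, 8.48, 8.15, 8.56 and 8.10 in CAF arrays, against 9.41, 10.08, 8.69, 8.80 and 9.19 in normal arrays. Normal array 2 was the highest, and no CAF array reached the lowest normal array. The means were 8.30 ± 0.21 in CAF and 9.23 ± 0.56 in normal arrays (SD, n = 5 each), 1.91-fold apart at -0.94 ± 0.24 (adjusted p = 0.086, limma). Without normal arrays 1 and 2 the difference was -0.60 with an adjusted p of 0.0442, where 13.1% of all genes were called, and over the 24 alternatives the adjusted p ran between 0.0359 and 0.352. Ephb1, a further receptor of B-class ephrins, read 5.48, 5.58, 5.56, 5.42 and 5.48 in CAF arrays, against 5.76, 5.63, 5.89, 5.59 and 5.87 in normal arrays. Its groups did not overlap, although normal array 4 lay just above the highest CAF array, and the difference was -0.24 ± 0.08 (adjusted p = 0.115). The mean of Ephb1 over all arrays, 5.63, lay below the median of every array (6.73 to 6.79).

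Epha2, the receptor of ephrin A1, read 9.26, 10.99, 9.77, 8.85 and 10.38 in CAF arrays, against 10.24, 8.05, 9.62, 10.04 and 10.29 in normal arrays. Both groups spanned more than the distance between their means, and the difference was 0.20 ± 0.51 (adjusted p = 0.841); it was -0.20 without normal array 2 and -0.08 without CAF array 2. Epha3, a receptor of A-class ephrins named after its values were seen because its means lay 2.51-fold apart, read 6.80, 5.79, 6.56, 4.94 and 5.8 in CAF arrays, against 5.54, 10.07, 5.76, 6.66 and 8.52 in normal arrays. Normal arrays 2 and 5 were far above the other 8 arrays, the difference was -1.33 ± 0.84 (adjusted p = 0.37), and all 4 of its probe sets were negative. The other Eph receptors were between -0.54 and 0.07, 7 of 8 of them negative.

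Of the Slit and Robo genes 2 of 7 differences were positive, and the median was -0.04. Robo1, a receptor of Slit ligands, read 7.45, 7.56, 9.36, 8.65 and 8.21 in CAF arrays, against 5.79, 8.0, 5.83, 6.97 and 6.88 in normal arrays. Normal array 2 lay inside the CAF range, and the other 4 normal arrays were below every CAF array. The means were 8.25 ± 0.79 in CAF and 6.70 ± 0.92 in normal arrays (SD, n = 5 each), a 2.94-fold difference of 1.55 ± 0.49 (adjusted p = 0.12, limma) on its brightest probe set. With array weights, under which normal arrays 1 and 2 counted least, Robo1 differed by 1.5 with an adjusted p of 0.0498, and over its 23 alternatives the adjusted p ran between 0.0498 and 0.376. Its 2 dimmer probe sets had the opposite sign, at -0.21 and -0.23, and the mean of its 3 probe sets differed by 0.37.

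On their brightest probe sets, the CAF and normal values of all 3 Slit ligands overlapped. Slit2, the ligand of Robo1 and Robo2, read 11.61, 11.98, 11.99, 11.99 and 11.24 in CAF arrays, against 11.80, 12.77, 11.12, 11.89 and 12.08 in normal arrays. The ranges overlapped throughout, with a difference of -0.17 ± 0.28 (adjusted p = 0.746) on the brightest of 3 probe sets, and of 0.04 without normal array 2. A dimmer Slit2 probe set had no overlap and differed by -0.73, and the dimmest overlapped at -0.37. Slit1, known mainly from the nervous system, read 7.47, 7.47, 7.29, 7.31 and 7.54 in CAF arrays, against 7.43, 7.69, 7.46, 7.54 and 7.47 in normal arrays. The difference was -0.11 ± 0.08 (adjusted p = 0.434), within overlapping ranges.

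Robo2, the other main Slit receptor, read 4.48, 4.69, 4.53, 4.43 and 4.48 in CAF arrays, against 4.51, 4.64, 4.48, 4.56 and 4.65 in normal arrays. Neither group stood apart, at -0.04 ± 0.07 (adjusted p = 0.744). The mean of Robo2, 4.55, lay near the lowest values of the arrays (3.98 to 4.09). Slit3 differed by 0.04 ± 0.34, Robo3 by -0.06 ± 0.14 and Robo4, a member of the family known from endothelium, by -0.0034 ± 0.08.

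Among netrins and Unc5 receptors 3 of 8 differences were positive, and the median was -0.03. Ntn1, a secreted guidance cue related to laminins, read 9.04, 8.10, 8.69, 10.02 and 7.75 in CAF arrays, against 7.96, 7.61, 7.43, 7.26 and 7.45 in normal arrays. CAF array 4 was the highest and CAF array 5 overlapped the normal range through normal array 1. The means were 8.72 ± 0.88 in CAF and 7.54 ± 0.26 in normal arrays (SD, n = 5 each), a 2.26-fold difference of 1.17 ± 0.38 (adjusted p = 0.122, limma), its dimmer probe set differed by 0.12, and the mean of both differed by 0.65. Ntn4, a netrin found in basement membranes, read 7.12, 7.23, 8.78, 8.63 and 8.53 in CAF arrays, against 8.28, 6.47, 5.92, 5.79 and 7.60 in normal arrays. CAF arrays 3 to 5 were above all normal arrays, but CAF arrays 1 and 2 were below normal arrays 1 and 5. The means were 8.06 ± 0.81 in CAF and 6.81 ± 1.09 in normal arrays (SD, n = 5 each), 2.37-fold apart at 1.25 ± 0.55 (adjusted p = 0.22), and the mean of its 2 probe sets differed by 0.79.

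Ntn3, a further secreted netrin, read 5.62, 5.91, 5.82, 5.54 and 5.8 in CAF arrays, against 6.26, 6.04, 5.91, 5.90 and 5.89 in normal arrays. Its groups overlapped slightly, at -0.26 ± 0.10 (adjusted p = 0.164). Unc5b, a netrin receptor also known from blood vessels, read 10.24, 11.41, 11.03, 11.12 and 11.36 in CAF arrays, against 11.84, 9.25, 10.83, 11.13 and 11.20 in normal arrays. Normal arrays 1 and 2 were the highest and the lowest of the 10, and the difference was 0.18 ± 0.44 (adjusted p = 0.83), or -0.22 without normal array 2. Ntn5, Unc5a, Unc5c and Unc5d were all negative, between -0.10 and -0.02.

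**Figure D3:**
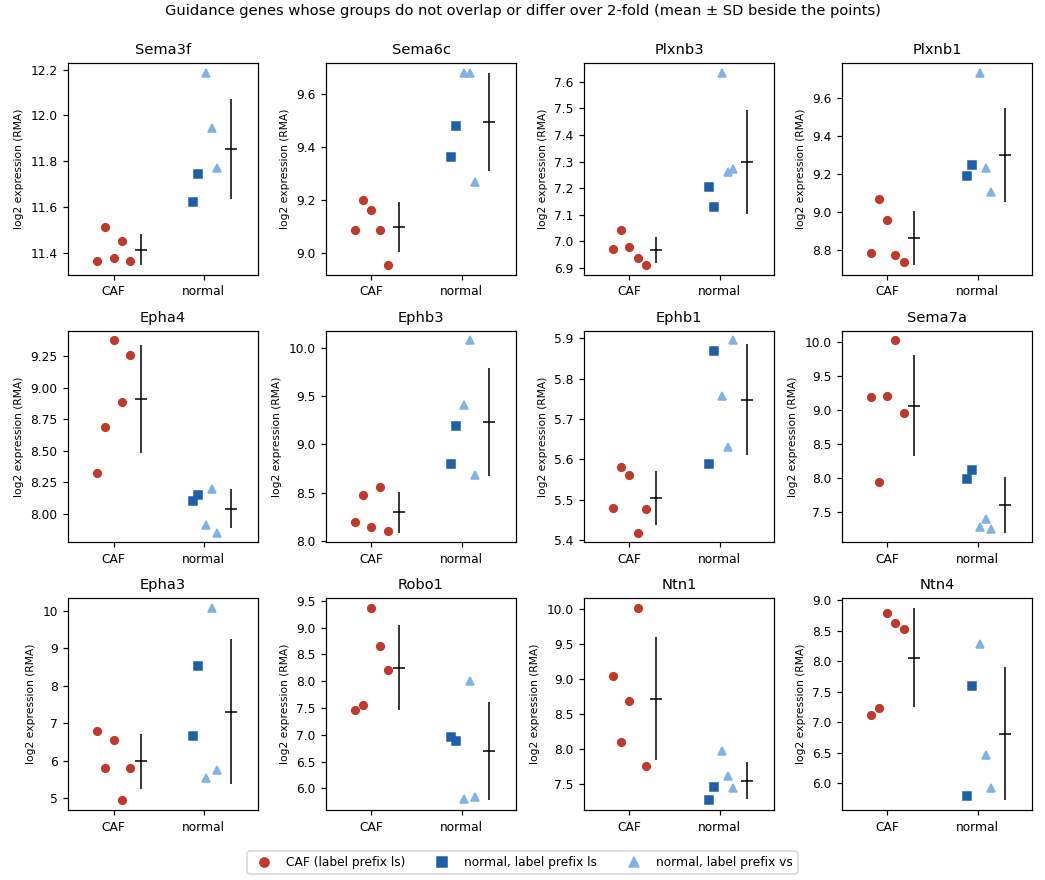
Log2 expression on each array of the 7 guidance genes whose groups do not overlap and of the 5 whose means lie at least 2-fold apart, with CAF at the left and normal at the right of each panel; symbols give the label prefix and bars the mean and SD. Epha4 is the 1 gene with all CAF arrays above all normal arrays; Sema7a, Robo1, Ntn1 and Ntn4 have the higher CAF mean with some overlap, and normal arrays 2 and 5 are the highest for Epha3.

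Since every CAF array carries the prefix ls, each difference was also set against the 2 normal arrays with ls and against the 3 with vs. The 7 genes without overlap keep their direction against both by construction, since all normal arrays lie on the same side of the CAF arrays. Epha4 differed by 0.78 ± 0.28 against ls and 0.92 ± 0.24 against vs. Ephb3 lay at -0.70 ± 0.17 against ls and -1.09 ± 0.29 against vs. Sema3f stood at -0.27 ± 0.08 against ls and -0.55 ± 0.10 against vs. In these 3 genes the difference was larger in size against the vs arrays, as it was in the other 4. Sema6c differed by -0.32 ± 0.09 against ls and -0.45 ± 0.12 against vs. Plxnb1 lay at -0.35 ± 0.11 against ls and -0.49 ± 0.16 against vs, and Plxnb3 at -0.20 ± 0.07 against ls and -0.42 ± 0.10 against vs. Ephb1 stood at -0.23 ± 0.10 against ls and -0.26 ± 0.08 against vs. Among genes with overlapping groups, Sema7a differed by 1.01 ± 0.47 against ls and 1.75 ± 0.40 against vs, and Robo1 by 1.33 ± 0.50 against ls and 1.71 ± 0.63 against vs. Sema3c and Ntn1 were greater against the ls arrays, Sema3c at 1.49 ± 0.23 against ls and 0.58 ± 0.27 against vs. Ntn1 lay at 1.36 ± 0.56 against ls and 1.05 ± 0.48 against vs. Plxnb2, Epha2 and Unc5b had opposite signs in the 2 comparisons. For Plxnb2 the values were 0.19 ± 0.17 against ls and -0.32 ± 0.27 against vs. For Epha2 they were -0.32 ± 0.54 against ls and 0.55 ± 0.62 against vs, and for Unc5b -0.13 ± 0.30 against ls and 0.39 ± 0.54 against vs. With the prefix as a term, limma called no gene of the array (2649 had an unadjusted p under 0.05), and the differences between the vs and ls comparisons were not tested.

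**Figure D4:**
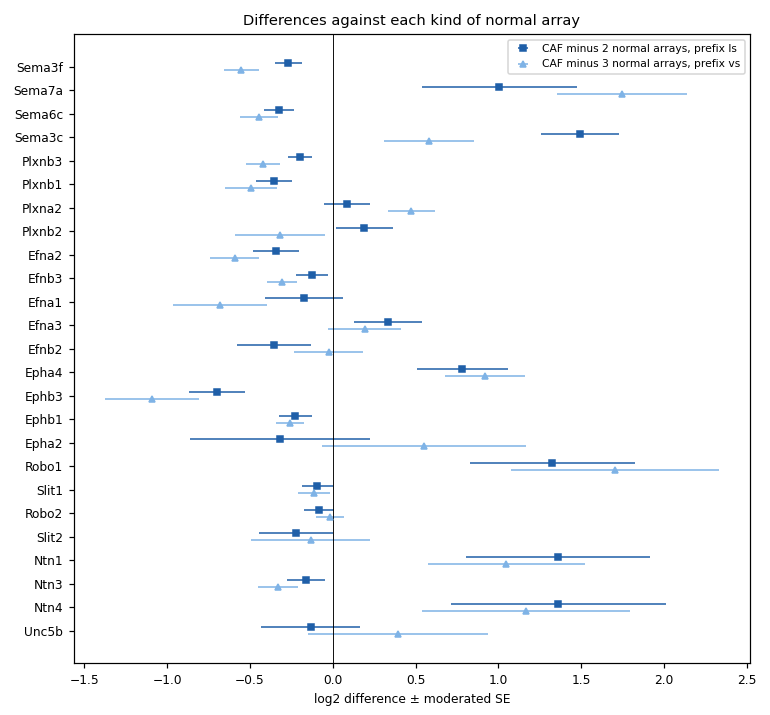
Log2 difference of the 25 guidance genes described by array, between the CAF arrays and the 2 normal arrays with prefix ls (squares) or the 3 with prefix vs (triangles); x axis, CAF minus normal, bars are the moderated standard error. Epha4, Sema7a, Robo1, Sema3c, Ntn1 and Ntn4 lie right of 0 in both, and Plxnb2, Epha2 and Unc5b change side.

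Outside these families, 71 of 74 listed genes of the guidance pathways were measured, and none passed the adjusted threshold, against 0.753% of all genes. Of 19 genes listed as co-receptors, which also held ligands such as Draxin, Ntng1 and Rgma, 8 differences were positive, with a median of -0.05. Nrcam, a cell adhesion molecule that joins neuropilin complexes, had the higher mean in CAF, 8.43 ± 0.84 in CAF and 6.79 ± 0.67 in normal arrays (SD, n = 5 each), at 1.63 ± 0.44 (adjusted p = 0.0883, limma). Flrt3, a surface partner of Unc5 and Robo receptors, differed by 0.94 ± 0.34 (adjusted p = 0.153). Dscam, a netrin receptor, differed by -0.20 ± 0.07 (adjusted p = 0.132).

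Of 44 measured signal transducers 32 differences were positive, with a median of 0.12. Over all genes 42.7% were positive, with a median of -0.04. The list was bright, with a mean level of 10.21 in CAF and 10.04 in normal arrays. Upper quartiles of the arrays were also higher in CAF (9.21 to 9.29) than in normal arrays (9.05 to 9.12). Whether expression level accounts for the count was not tested. Enah, an actin regulator downstream of Robo and netrin signals, averaged 13.21 ± 0.30 in CAF and 12.19 ± 0.47 in normal arrays (SD, n = 5 each), a difference of 1.02 ± 0.23 (adjusted p = 0.0668, limma). Srgap3, a GTPase-activating protein that binds Robo, averaged 9.85 ± 0.13 in CAF and 8.53 ± 0.87 in normal arrays (SD, n = 5 each) and differed by 1.32 ± 0.36 (adjusted p = 0.0899). Ngef, the exchange factor ephexin that binds EphA4, differed by -0.32 ± 0.09 (adjusted p = 0.093). Of 8 measured proteases and sheddases that cut guidance proteins, 4 differences were positive. The gelatinase Mmp2 differed by -0.53 ± 0.28, the gelatinase Mmp9 by -1.41 ± 1.03 and the gamma-secretase subunit Psen2 by 0.37 ± 0.21, with adjusted p of 0.286, 0.439 and 0.324.

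The cell type in the labels was set against marker lists. The mean of the 12 fibroblast markers was high on every array, led by Col1a2, Vim and Fn1. It was 12.95 ± 0.59 in CAF and 13.17 ± 0.61 in normal arrays (log2, SD, n = 5). Single markers were not bright throughout. Lum ran between 7.06 and 14.12 in CAF and between 8.18 and 14.49 in normal arrays. Fbln1 ran between 7.33 and 10.45 in CAF and between 9.35 and 10.67 in normal arrays. Macrophage markers were also present throughout, led by Lyz2, Tyrobp and Csf1r. Their summed level, on the linear scale, ran between 40930 and 121831 in CAF and between 26489 and 125228 in normal arrays, and 11 of the 12 had the higher mean in CAF, with a median of 0.47. The 8 mesothelial markers, led by Upk1b, Upk3b and Wt1, all had the lower mean in CAF, with a median of -1.20; their summed level ran between 1468 and 11343 in CAF and between 668 and 44583 in normal arrays. No member of either list passed the adjusted threshold. Normal array 1 had the highest and normal array 2 the lowest mean of both lists. Summed levels of the 14 endothelial markers, Robo4 among them, were between 1752 and 4868 in CAF and between 2051 and 3372 in normal arrays. Of their differences 9 were negative and 5 positive, with a median of -0.03 and a lowest adjusted p of 0.086 (limma). Egfl7 and Emcn lay wholly below normal in CAF, as did 4.19% of all genes. Summed levels of 8 lymphocyte markers were between 764 and 835 in CAF and between 834 and 952 in normal arrays, and 6 of their differences were negative.

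Across the 10 arrays, each guidance gene was compared with the mean of the macrophage and of the mesothelial markers, 134 relations in all. The tests were two-sided permutation tests of 100000 resamples with Benjamini-Hochberg adjustment. They were added after the data were seen, and these 2 lists were taken because their means ranged over more than 2 log2 units across the arrays. Efna5, a lipid-anchored ephrin, followed the mesothelial markers with a Pearson r of 0.939 (permutation p = 9e-05, adjusted p = 0.0121) and a Spearman rho of 0.915 (permutation p = 0.00056, adjusted p = 0.025). Without normal arrays 1 and 2, the farthest from the median, r was 0.865, and over the 7 arrays with prefix ls it was 0.820; the 3 arrays with vs are too few for a value. Efna5 read 9.55, 10.34, 9.75, 9.60 and 9.83 in CAF arrays, against 10.84, 8.98, 10.39, 10.24 and 10.16 in normal arrays. No other relation had an adjusted Pearson p under 0.05.

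Sema4a, a transmembrane semaphorin known from immune cells, had r = 0.886 with the macrophage markers (permutation p = 0.00109, adjusted p = 0.0614) and rho = 0.915 (permutation p = 0.00052, adjusted p = 0.025). Plxnc1, the receptor of Sema7a, had r = 0.870 (permutation p = 0.00149, adjusted p = 0.0614) and rho = 0.915 (permutation p = 0.00042, adjusted p = 0.025) with the same markers. Without normal arrays 1 and 2 r was 0.820 for Sema4a and 0.779 for Plxnc1, and over the 7 ls arrays it was 0.797 and 0.888. Sema4a differed by 0.05 ± 0.52 and Plxnc1 by 0.76 ± 0.59 between the groups.

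The genes whose groups stood further apart were also set against the mesothelial markers, which had the lower mean in CAF, and none of these relations had an adjusted p under 0.05 over the 10 arrays. Robo1 had r = -0.755 (permutation p = 0.0124, adjusted p = 0.168) and rho = -0.770 (permutation p = 0.0126, adjusted p = 0.169), with r = -0.730 without normal arrays 1 and 2 and -0.611 over the 7 ls arrays. Ephb1 had r = 0.705 (permutation p = 0.0247, adjusted p = 0.244) and rho = 0.648 (permutation p = 0.0499, adjusted p = 0.394), with 0.889 without normal arrays 1 and 2 and 0.854 over the ls arrays. For Sema7a r was -0.530 (permutation p = 0.116, adjusted p = 0.41) and rho -0.539 (permutation p = 0.115, adjusted p = 0.512), with -0.899 without normal arrays 1 and 2 and -0.863 over the ls arrays. In Ephb1 and Sema7a the relation was closer without normal arrays 1 and 2 than over all 10 arrays, and so it was in Ntn1. For Ntn1 r was -0.506 (permutation p = 0.136, adjusted p = 0.426) and rho -0.442 (permutation p = 0.205, adjusted p = 0.601), with -0.889 without normal arrays 1 and 2 and -0.888 over the ls arrays. Without normal arrays 1 and 2, r was 0.810 for Sema3f, 0.762 for Plxnb1, 0.737 for Plxnb3, 0.646 for Sema6c, 0.599 for Ephb3 and -0.538 for Epha4. Over all 10 arrays these were 0.456, 0.606, 0.570, 0.266, 0.0347 and -0.422 in the same order, with adjusted p between 0.328 and 0.949. With the macrophage markers, over the ls arrays, r was -0.671 for Sema3f, -0.771 for Plxnb1, -0.556 for Plxnb3 and -0.745 for Sema6c. It was -0.634 for Ephb3, -0.714 for Ephb1, 0.076 for Epha4, 0.387 for Sema7a, 0.0018 for Robo1 and 0.329 for Ntn1. Over all 10 arrays the macrophage r of these genes ran between -0.441 (Ephb3) and 0.216 (Ntn1). The adjusted permutation p lay between 0.528 and 0.936. The mesothelial mean was 6.03 in normal array 2, below every CAF array (6.79 to 9.17), and 10.36, 8.92 and 10.39 in normal arrays 3 to 5. Without normal arrays 1 and 2, or over the ls arrays, the marker mean therefore nearly separates the groups. Genes chosen for a group difference then correlate with it in part by construction. Whether the other cells account for any part of the differences between CAF and normal arrays was not tested.

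**Figure D5:**
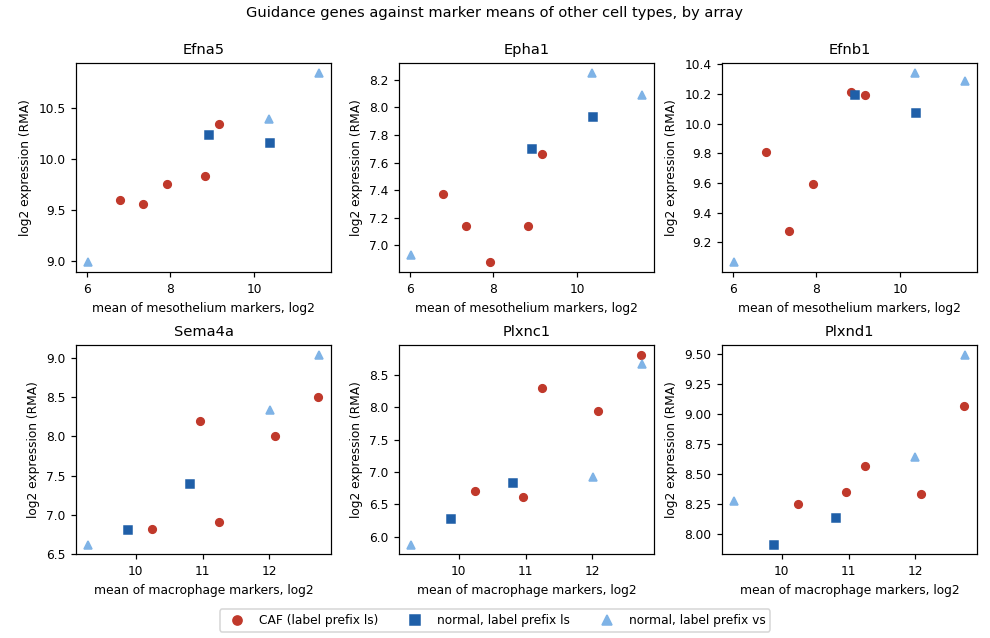
Log2 expression of 6 guidance genes on each array (y axis) against the mean log2 level of mesothelial markers (upper row) or macrophage markers (lower row); red points are CAF arrays, blue symbols normal arrays by label prefix. Efna5 rises with the mesothelial mean (r = 0.939), and Sema4a and Plxnc1 with the macrophage mean (r = 0.886 and 0.870).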

How the data were processed

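Total RNA of 5 CAF and 5 normal lung fibroblast cultures was hybridised to Affymetrix mouse arrays, and arrays were grouped by the cell type in the labels. The deposited values are log2 expression per probe set, summarised by the authors with RMA in Affymetrix Expression Console. The submitters' processing notes give this and also name limma. RMA draws arrays to a common distribution, but medians and upper quartiles of the deposited values still differed between the groups. Of 45101 probe sets, 64 controls were left out, and 34945 had a single gene symbol in the platform annotation (932 had several, 9160 were not listed). Each gene took its probe set with the highest mean over the 10 arrays, which left 18193 genes. Groups were compared with limma 3.58.1 (R 4.3.3, lmFit and eBayes, no covariate), p-values were adjusted over all genes by Benjamini-Hochberg, and a call is an adjusted p under 0.05; the fit was tested on simulated data. Array medians were 6.73 to 6.74 in CAF and 6.76 to 6.79 in normal arrays, and the number of arrays limits the precision. Upper quartiles were 9.21 to 9.29 in CAF and 9.05 to 9.12 in normal arrays. The median correlation between arrays was 0.985 within CAF, 0.959 within normal and 0.969 between them, and no arrays were duplicates. Genes given by array are, in each family, the 3 with the smallest p, the smallest p in the other direction and the highest mean; others are given by counts. In the pathway lists the named genes are the 3 with the smallest p and the smallest p in the other direction, and in the cell type lists the 3 brightest. The genes and lists were chosen with earlier results of these data known. Markers of epithelium (12 genes, 2 positive differences, median -0.25), pericytes and smooth muscle (10, 8 positive, 0.14) and Schwann and neural cells (10, 3 positive, -0.16) were also tested, with no call. The median and mean of the last list differ in sign: its mean level was 7.02 ± 0.23 in CAF and 6.73 ± 0.09 in normal arrays (SD, n = 5 each), 2 genes lay wholly above normal in CAF, and the lowest adjusted p was 0.0518.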

Additional observations from a re-analysis of the deposited data

Results flagged for a closer look

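In Plxnb1, normal array 1 read 9.74 while the nearest other normal array read 9.25, a gap of 0.775 of the group's range. In Plxnb3, normal array 1 read 7.64 and the nearest other normal array 7.27, a gap of 0.713 of the range. These were 2 of 50 groups of 5 arrays over the 25 genes given by array, and chance alone sets a value apart in about 1 of 20 groups; over all 67 genes it was 10 of 134 groups. Without normal array 1 the difference was -0.33 for Plxnb1 and -0.25 for Plxnb3, against -0.44 and -0.33 with it.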

How the results depend on the processing

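Of 588 values of the 25 genes given by array under 24 alternatives, 553 kept their direction and their side of the threshold, 16 became calls and 19 changed sign. Genes called over the whole array numbered 137, and 285 with median centring, 47 with an intensity trend, 50 with robust eBayes, 1597 with array weights, 50 among the genes above the median level, 355 with every probe set singly, 1 with the prefix ls alone, and 0 to 166 with 1 array left out (0 without CAF array 1, 3 or 5 or normal array 3, 1 without CAF array 4, 24 without normal array 1, 63 without normal array 4 and 46 without normal array 5). They numbered 0 with the prefix as a term (limma, 2649 at an unadjusted p under 0.05) and 0 by the exact Wilcoxon test (3184). With 5 against 5 arrays that test has a smallest possible p. A call would need more genes at it than the 7.16% without overlap. Its differences are those of the main fit, so its values among the 588 could not change sign. The replicate block also called 0 (limma, 3017 at an unadjusted p under 0.05); same-numbered arrays deviated together with correlations between -0.53 and 0.34, so the numbers share no more than a label. Leaving out normal arrays 1 and 2 together, chosen after seeing the data, gave 2382. Guidance genes called numbered 0, and 1 with median centring, 1 with every probe set singly and 1 with the mean of probe sets (Epha4 each time), 8 with array weights (Epha4, Ephb3, Plxnb1, Robo1, Sema3c, Sema3f, Sema6c and Sema7a; 8.78% of all genes), 0 to 1 with 1 array left out (Sema7a without CAF array 2), and 5 without normal arrays 1 and 2 (Epha1, Epha4, Ephb3, Sema3c and Sema3f; 13.1% of all genes). Of the 71 other pathway genes measured, 0 were called, and 8 with array weights (8.78% of all genes) and 2 with every probe set singly (1.95%). Such calls numbered 0 to 1 with 1 array left out (1 without CAF array 2, 0.841% of all genes) and 9 without normal arrays 1 and 2 (13.1%). Guidance genes without overlap numbered 7 (7.16% of all genes had none), and 12 with every probe set singly (10.8% of all genes), 15 with the prefix ls alone (32.6%), 13 against vs alone (12.9%), 7 to 11 with 1 array left out (7.85% to 12%; 11 without CAF array 2) and 11 without normal arrays 1 and 2 (23.9%); smaller groups overlap less often by their construction. The median difference of -0.06 became 0.0526 among the genes above the median level and -0.117 with every probe set singly. In that last setting each gene was given by its probe set with the smallest p, so its counts and median follow a choice by p. The sign of Plxnb2 turned with array weights (0.0477), the prefix as a term or ls alone (0.191) and without normal arrays 1 and 2 (0.268), and ran between -0.254 and 0.0750 with 1 array left out, positive without normal array 1. That of Epha2 turned with array weights (-0.165), the prefix as a term or ls alone (-0.318) and without normal arrays 1 and 2 (-0.135), and ran between -0.198 and 0.453 with 1 array left out, negative without CAF array 2 (-0.0840) or normal array 2. That of Unc5b turned with array weights (-0.0159), the prefix as a term or ls alone (-0.135) and without normal arrays 1 and 2 (-0.0224), and ran between -0.218 (without normal array 2) and 0.429 with 1 array left out. That of Slit2 turned without normal arrays 1 and 2 (0.0640) and ran between -0.372 and 0.0396 (without normal array 2) with 1 array left out, and that of Robo2 with median centring (0.0006). Fewer arrays were fitted where arrays were left out; otherwise the cause was not tested.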

Other observations

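Other guidance genes followed the marker means of other cell types without an adjusted Pearson p under 0.05 among the 134 relations. Plxnd1, the receptor of Sema3e, had r = 0.796 with the macrophage markers (permutation p = 0.00396, adjusted p = 0.0758), rho = 0.842 (permutation p = 0.00399, adjusted p = 0.107), r = 0.858 without normal arrays 1 and 2 and r = 0.846 over the 7 ls arrays. Unc5c, a netrin receptor, ran the opposite way, with r = -0.831 (permutation p = 0.00263, adjusted p = 0.0614), rho = -0.855 (permutation p = 0.00293, adjusted p = 0.0982), r = -0.768 without normal arrays 1 and 2 and r = -0.746 over the ls arrays. With the mesothelial markers, the Eph receptor Epha1 had r = 0.843 (permutation p = 0.00268, adjusted p = 0.0614), rho = 0.806 (permutation p = 0.00714, adjusted p = 0.149), r = 0.774 without normal arrays 1 and 2 and r = 0.678 over the ls arrays. The transmembrane ephrin Efnb1 had r = 0.829 (permutation p = 0.00275, adjusted p = 0.0614), rho = 0.782 (permutation p = 0.0106, adjusted p = 0.158), r = 0.745 without normal arrays 1 and 2 and r = 0.680 over the ls arrays.

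Probe sets of 1 gene gave unlike values in Sema4f, a transmembrane semaphorin. The brighter probe set differed by -0.06, with overlapping groups. The dimmer one, of the kind that can cross-hybridise, read 6.66, 7.57, 7.84, 6.08 and 8.12 in CAF arrays, against 5.66, 5.69, 5.63, 6.16 and 6.31 in normal arrays. Only CAF array 4 fell within the normal range, and the difference was 1.36 ± 0.37 (adjusted p = 0.0847, limma over all single-gene probe sets).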
